A study of Mus musculus with 6 samples.

Results

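The genes described here encode RNA-binding proteins that set how long an mRNA lasts and how often it is translated: the 4 Elavl genes (Elavl1, Elavl2, Elavl3 and Elavl4), the 3 fragile X genes (Fmr1, Fxr1 and Fxr2) and Syncrip. They were chosen by symbol, and all 8 were found among the 17920 genes of the table and passed the filter on low counts that left 13669 genes. The libraries came from E13.5 mouse brain cortex (E, embryonic day), sequenced as 3 WT and 3 KD replicates. The sample titles say nothing more of the groups, and the column names call them Ybx1 Ctrl and Ybx1 KD. The text of the series has Ybx1 deleted. The methods of the study describe instead cells dissociated from the cortex and cultured, infected with a lentivirus carrying a short hairpin RNA (shRNA), and exposed to puromycin so that infected cells remained. WT therefore stands for cells with a control hairpin and KD for cells with a hairpin against Ybx1, so both groups carried a virus and met the drug. The results of the study call the cultured cells embryonic neural stem cells, and a figure legend calls them cortical progenitors. Which of the Ybx1 hairpins was used, and the mouse strain of the cultures, are not given in the sources used here. Ybx1 binds mRNA and reads 5-methylcytosine on it, and Elavl1 is known as a partner of Ybx1 on stabilised transcripts. The question was how the mRNAs of Elavl1, of its neuronal paralogs and of these translation regulators stood once Ybx1 was reduced.

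Elavl proteins bind U-rich and AU-rich stretches, mostly in the 3' ends of transcripts, and protect those transcripts from decay. Elavl1, also called HuR, is made in nearly all cells, whereas Elavl2, Elavl3 and Elavl4 (HuB, HuC and HuD) are made in neurons, from about the time a cortical cell leaves the cell cycle. Fmr1 encodes Fmrp, which sits on translating polysomes and restrains translation in neurons, and whose loss causes fragile X syndrome. Fxr1 and Fxr2 encode its close relatives. Syncrip, also called hnRNP Q, is a cytoplasmic RNA-binding protein of mRNA transport granules.

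The Elavl genes are alike in their coding sequence, which bears on how reads can be told apart. The most alike stretch of 60 bases in the alignment of the 4 coding sequences (GENCODE M21, 1 principal transcript per gene) is shown, with capitals at the 14 positions where the genes differ. All 14 fall on the third base of a codon. The stretch starts at coding base 840 in Elavl1, 978 in Elavl2, 960 in Elavl3 and 1014 in Elavl4.
Elavl1: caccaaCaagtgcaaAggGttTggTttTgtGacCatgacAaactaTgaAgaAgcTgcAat
Elavl2: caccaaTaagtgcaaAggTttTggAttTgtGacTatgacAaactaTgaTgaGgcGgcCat
Elavl3: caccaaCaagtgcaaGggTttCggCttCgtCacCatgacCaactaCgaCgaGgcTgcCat
Elavl4: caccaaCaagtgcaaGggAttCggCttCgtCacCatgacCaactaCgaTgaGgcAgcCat

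Over whole coding sequences, Elavl2 and Elavl4 were identical at 76.8% of aligned bases, and Elavl1 and Elavl3, the least alike pair of the family, at 68.9%. The longest exact run shared by any pair of Elavl transcripts was 29 bases, between Elavl3 and Elavl4. Among the fragile X genes, Fxr1 and Fxr2 were identical at 66.3% of aligned coding bases and Fmr1 and Fxr2 at 58.5%, with no shared run over 20 bases. The estimated counts of all 8 genes were exactly whole as deposited in every library, as were 89.3% to 89.9% of all values in a library. A program that splits reads between genes can leave decimals, but whole counts do not show that no reads were shared.

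In GRCm38 the Elavl genes lie on the minus strand, Elavl1 on chromosome 8 (4285382 to 4325413), Elavl2 on chromosome 4 (91250763 to 91400785), Elavl3 on chromosome 9 (22015005 to 22052023) and Elavl4 on chromosome 4 (110203722 to 110351909). Fmr1 lies on the plus strand of chromosome X (68678541 to 68717963), Fxr1 on that of chromosome 3 (34019943 to 34070322) and Fxr2 on that of chromosome 11 (69632990 to 69653297). Syncrip lies on the minus strand of chromosome 9 (88447009 to 88482574). The span of Fxr1 overlaps Dnajc19 on the other strand and that of Elavl1 overlaps Ccl25, also on the other strand. On the same strand, the span of Elavl3 overlaps the protein-coding gene Gm49318 and that of Syncrip overlaps Gm20537. Whether counting used strand is not given in the sources used here, and strand would not separate genes that lie on the same strand. Whole spans were compared and not exons, so whether any reads fell in both genes of a pair was not tested.

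Library totals lay between 16294635 and 16497505 estimated counts. Ybx1 was at 618, 615 and 653 CPM (counts scaled to a common library size) in WT replicates 1, 2 and 3 and at 98.3, 92.2 and 158.8 CPM in KD, which was 14.7% to 25.3% of the WT mean (log2 fold change -2.43, SE 0.18, adjusted p = 1.82e-04). Neuron markers were abundant in all libraries, with a summed level of 6883 to 7614 TPM (a relative transcript abundance that divides by length) in WT and 6529 to 7491 TPM in KD. Markers of microglia, endothelial, mesenchymal and red blood cells summed to at most 15.5 TPM per list in any library. Among all genes, the share called at an adjusted p under 0.05 was 12% higher and 11.9% lower in KD, and with the replicate number as a block 18.6% higher and 18.1% lower. Fold changes were relative to the scaling used: on log2(TPM + 1), 65.9% of the called genes were higher, against 50.2% with the TMM scaling.

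Of the 8 genes, Fmr1 and Fxr2 were higher in KD past the threshold and none was lower. Elavl2 and Elavl3 were lower at an unadjusted p under 0.05 and passed the adjusted threshold once libraries with the same replicate number were compared with each other. The libraries of the groups did not overlap for 3 of the 8, Fmr1, Fxr2 and Syncrip, all with KD above WT. Over all genes tested, 21.0% had every KD library above every WT library and 20.6% had every KD library below. The 2 of 8 called higher are to be read against 12% of all genes. The 3 of 8 above without overlap are to be read against 21.0%, and the 2 of 8 called lower with the block against 18.1%. With 8 genes nothing particular to the set is drawn from these counts. The share of all genes that moved alike in all 3 pairs is not given here. The median log2 fold change of the 8 genes was 0.07, and that of all genes tested was 0.00. In the plot of normalised counts, the slopes of the replicate lines show which genes moved alike in all pairs.

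**Figure D1:**
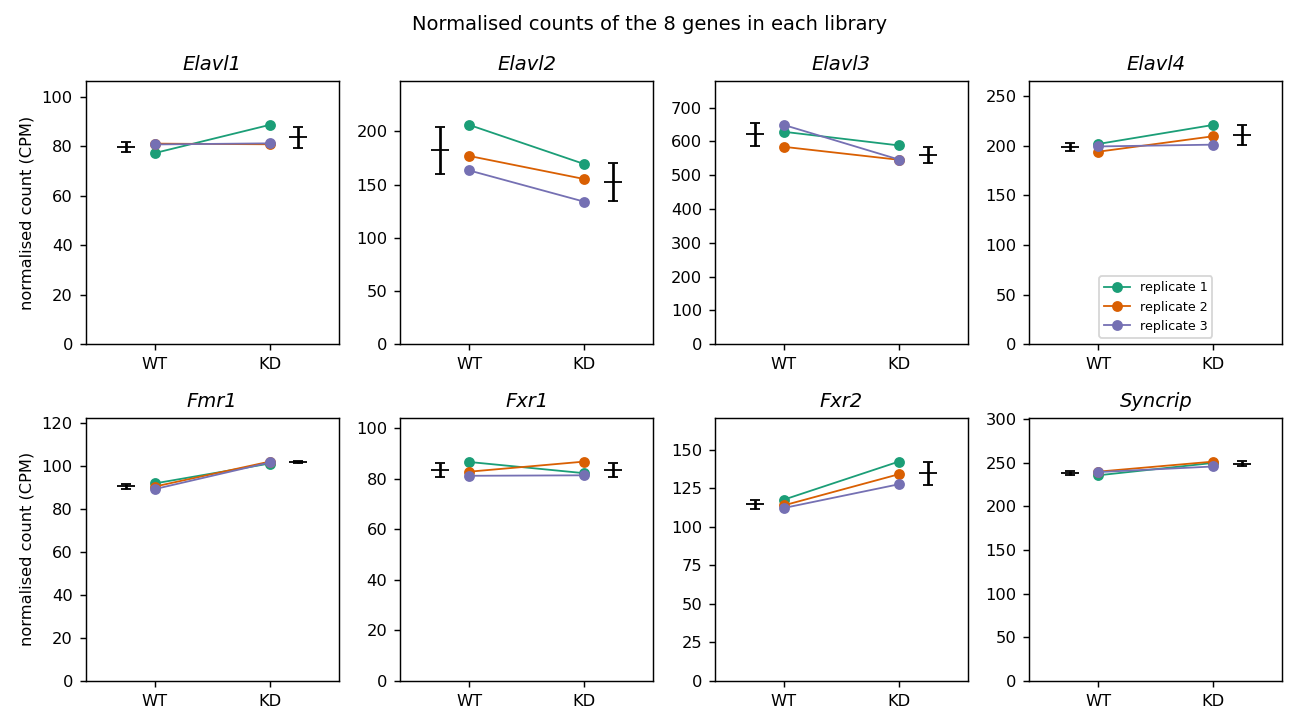
Normalised counts (CPM, vertical axes from 0) of the 8 genes in the 3 WT and 3 KD libraries. Lines join libraries with the same replicate number, and black bars give mean and SD of each group. Fmr1 and Fxr2 rise in all 3 pairs, Elavl2 and Elavl3 fall in all 3, and Fxr1 is level.

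Elavl1, the widely expressed member that stabilises mRNA together with Ybx1, was at 77.2, 81.0 and 80.7 CPM in WT and at 88.6, 80.8 and 81.2 CPM in KD. KD replicate 1 stood above the rest and the other libraries of both groups overlapped. Between the groups Elavl1 differed by 0.07 on the log2 scale (95% interval -0.06 to 0.19, SE 0.06, adjusted p = 0.405), in libraries where Ybx1 mRNA fell by 81.5%. Without KD replicate 1 the Elavl1 value was 0.024.

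Among the neuronal paralogs, Elavl2 and Elavl3 were lower with the block and Elavl4 passed in neither fit. A difference between paralogs was not tested. Elavl2, the paralog that appears early in neuronal differentiation, was at 206, 177.0 and 163 CPM in WT and at 169, 155 and 134.0 CPM in KD. The lowest WT library lay under the highest KD library, so the groups overlapped, but in each pair of equal number KD was lower, by log2 differences of -0.28, -0.19 and -0.29. In both groups replicate 1 was the highest library and replicate 3 the lowest.

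The log2 fold change of Elavl2 was -0.25 in both fits. Without the block its adjusted p was 0.103 (SE 0.10), and with the block it was 9.05e-04 (SE 0.05, 95% interval -0.35 to -0.15), a fall in 3 of 3 pairs. Leaving out WT replicate 1 moved the unblocked log2 fold change to -0.15 and leaving out KD replicate 3 moved it to -0.165, while it was -0.33 without KD replicate 1.

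Elavl3, the pan-neuronal paralog, was the most abundant of the 8 genes per transcript length, with normalised counts of 628, 584 and 649 CPM in WT and 588, 545 and 546 CPM in KD. KD replicate 1 stood just above WT replicate 2, so the groups overlapped, and KD was again lower in 3 of 3 pairs. Its log2 fold change was -0.15 in both fits, with an adjusted p of 0.0773 (SE 0.05) without the block and 0.0197 (SE 0.05, 95% interval -0.24 to -0.05) with it. Relative to WT, Elavl3 fell by 9.74%.

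Elavl4, whose protein binds Gap43 mRNA in neurons, was at 202, 194 and 199 CPM in WT and 221, 209.5 and 201 CPM in KD. It was thus higher in KD in 3 of 3 pairs, although KD replicate 3 lay within the WT range. Its log2 fold change was 0.09 (SE 0.05, adjusted p = 0.235, or 0.173 with the block), and its 95% interval ran from -0.03 to 0.20. Without KD replicate 1 the Elavl4 value was 0.051.

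Markers of neurons were mixed in the same libraries. Of 14 neuron markers, 3 were higher and 3 lower past the threshold (6 and 3 with the block), and 8 did not pass. Their median log2 fold change was 0.04. Among all genes 12% were called higher and 11.9% lower (18.6% and 18.1% with the block). The 3 lower became 0 without WT replicate 2 and 1 without KD replicate 2, and 2 without WT replicate 1 or KD replicate 1. The 3 higher became 1 without KD replicate 2, and 2 without WT replicate 1 or WT replicate 2. Of the 4 called markers with the largest changes, Dcx (0.29, adjusted p = 0.00518) and Neurod2 (0.46, adjusted p = 0.0162) rose. Syt1 (-0.36, adjusted p = 0.0101) and Gap43 (-0.27, adjusted p = 0.0149) fell. In bulk RNA, fewer cells of a type and less RNA per cell cannot be told apart, and the part of cell composition in the changes of Elavl2 and Elavl3 was not tested.

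**Figure D2:**
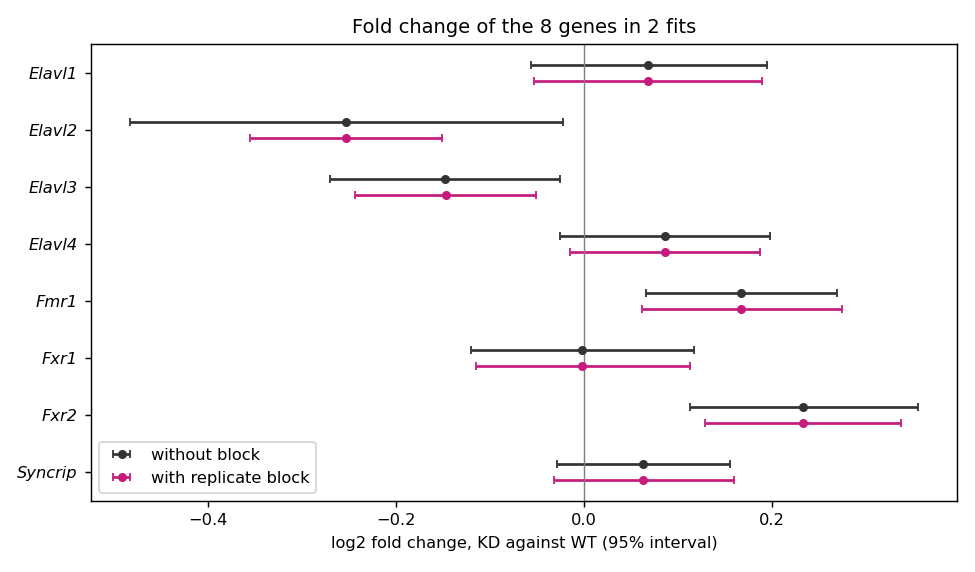
Log2 fold change of KD against WT (horizontal axis) for each of the 8 genes, with 95% intervals, from edgeR fits without a block (dark) and with the replicate number as a block (pink). The estimates are nearly the same in both fits, and the interval of Elavl2 narrows from between -0.48 and -0.02 to between -0.35 and -0.15.

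Among the fragile X genes, Fmr1 and Fxr2 rose and Fxr1 was level. Fmr1, whose protein Fmrp is the translational repressor of the family, was at 91.8, 90.4 and 89.2 CPM in WT and 101, 102 and 101.6 CPM in KD. Each group was tight, and the lowest KD library stood above the highest WT library. The log2 fold change was 0.17 (SE 0.04, 95% interval 0.07 to 0.27, adjusted p = 0.0275), a rise of 12.3% seen in 3 of 3 pairs. Fmr1 is X-linked, and the Y-linked transcript Ddx3y had 1 and 5 estimated counts in the WT and KD replicate 2 libraries and between 290 and 523 in the other 4. For Fmr1 itself, replicate 2 was the middle WT library at 90.4 CPM and the highest KD library at 102 CPM. The part of embryo sex in the Fmr1 values was not tested.

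Fxr2, a paralog of Fmrp that also binds polysomes, showed the larger rise. It was at 117.5, 114 and 112 CPM in WT and at 142, 134 and 127.5 CPM in KD. KD replicate 1 was highest, and the lowest KD library, replicate 3, stood above the highest WT library, replicate 1. Its log2 fold change was 0.23 (SE 0.05, 95% interval 0.11 to 0.36, adjusted p = 0.0155, or 0.00194 with the block), a rise of 17.6%.

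Fxr1, the paralog best known from muscle, was at 86.6, 82.7 and 81.1 CPM in WT and 82.1, 86.7 and 81.3 CPM in KD. The ranges of the groups nearly coincided, with a log2 fold change of 0.00 (SE 0.05, 95% interval -0.12 to 0.12, adjusted p = 0.986). The sign of this value changed between scalings, with a range of -0.037 to 0.064 over the alternatives.

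The calls of Fmr1 and Fxr2 were not kept in every fit with 1 library left out. Such fits have fewer samples, and over all genes they called 779 to 1612 higher, against 1646 with all libraries. Fmr1 lost its call when WT replicate 1 (adjusted p = 0.058) or WT replicate 2 (0.0857) was left out, and likewise with KD replicate 1 (0.0662), KD replicate 2 (0.09) or KD replicate 3 (0.0626) left out. It was not past the threshold in DESeq2 either (0.056), and its adjusted p over all 14 alternatives was 0.0167 to 0.223. Fxr2 lost its call when WT replicate 2 (adjusted p = 0.0612), KD replicate 1 (0.0517) or KD replicate 2 (0.0562) was left out, and its range was 0.00194 to 0.169. Their log2 fold changes stayed within 0.16 to 0.21 for Fmr1 and 0.19 to 0.28 for Fxr2. Both rises were small against those of other called genes. Among the genes called higher, whose median log2 fold change was 0.345, 2.79% had a smaller one than Fmr1 and 21.7% a smaller one than Fxr2.

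Syncrip was at 236, 239.8 and 239.3 CPM in WT and 249.8, 251 and 246 CPM in KD. All KD libraries stood above all WT libraries, by a narrow margin. The log2 fold change of 0.06 (SE 0.04, 95% interval -0.03 to 0.15, adjusted p = 0.29) did not pass the threshold. Of its relatives by RNA recognition motifs, Hnrnpr, A1cf, Rbm46, Rbm47 and Dnd1, 3 of 5 could be tested and 0 were called in either direction by edgeR, with or without the block.

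Levels of different genes were compared on the TPM scale, which divides by transcript length. In WT the order was Elavl3 (260 ± 17.0 TPM, SD, n = 3), Syncrip (117 ± 1.89), Elavl4 (107 ± 3.13), Elavl2 (94.5 ± 10.9), Fxr2 (85.0 ± 1.92), Fxr1 (77.6 ± 1.89), Fmr1 (44.4 ± 0.63) and Elavl1 (27.5 ± 0.80). The ranges of Elavl2 and of each of its neighbours, Elavl4 and Fxr2, overlapped, and all other neighbours were apart.

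In KD, Fxr2 (103.6 ± 6.98 TPM) stood above Elavl2 (82.2 ± 10.4 TPM) in all 3 libraries, whereas in WT it stood below in all 3. Elavl2 and Fxr1 (81.2 ± 4.65 TPM) overlapped in KD and the rest of the order was that of WT. The widely expressed Elavl1 was the lowest of the 8 genes in every library, and Elavl3 the highest.

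**Figure D3:**
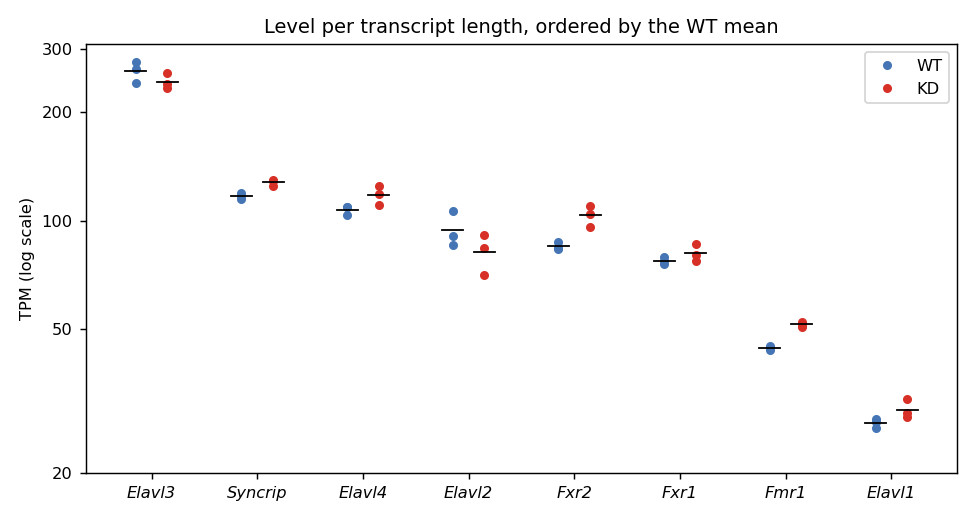
Level of each gene per transcript length (TPM, log scale) in the 3 WT and 3 KD libraries, with genes ordered by the WT mean and bars at the group means. Elavl3 is highest and Elavl1 lowest in both groups, and Fxr2 and Elavl2 change places.

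The makeup of each family was then compared as each gene's share of the summed TPM of its family, which does not depend on the scaling of the library. Elavl4 made up 21.6%, 22.4% and 21.9% of Elavl TPM in WT and 24.66%, 25.24% and 25.03% in KD. Its KD share exceeded its WT share in every comparison of libraries, by 3.03 percentage points between the means. Elavl1 also had a larger share in KD, 6.32% ± 0.12 against 5.64% ± 0.35 (SD, n = 3), without overlap. Shares in a family depend on each other, so a larger share is not by itself a rise of the gene. In normalised counts neither Elavl4 nor Elavl1 passed the threshold.

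The shares of Elavl2 (19.3% ± 1.94 in WT, 17.3% ± 1.14 in KD) and Elavl3 (53.1% ± 1.81 in WT, 51.4% ± 0.99 in KD) were lower in KD in 3 of 3 pairs but overlapped between groups. Without WT replicate 1 the Elavl2 difference moved from -1.98 to -1.08 points, and without WT replicate 3 it was -3.01 and that of Elavl3 moved from -1.73 to -0.68 points. The summed level of the family was 489 ± 22.5 TPM in WT and 473.5 ± 31.1 TPM in KD (exact permutation test, p = 0.6).

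In the fragile X family, Fxr1 made up 37.6%, 37.4% and 37.5% of the summed TPM in WT and 33.1%, 35.5% and 34.4% in KD, so its share was lower in every KD library while its TPM was 77.6 in WT and 81.2 in KD on average. Fxr2 made up 41.1% ± 0.10 of the family in WT and 43.8% ± 1.49 in KD, without overlap, and Fmr1 was at 21.4% ± 0.16 and 21.8% ± 0.67 with overlap, a difference of 0.408 points that was 0.026 without KD replicate 3. The summed level was 207 ± 4.42 TPM in WT and 236.5 ± 10.6 TPM in KD, also without overlap (exact permutation test, p = 0.1). Unlike the shares, this sum depends on the scaling of TPM, and on log2(TPM + 1) 65.9% of all called genes were higher. For the 4 shares without overlap (Elavl1, Elavl4, Fxr1 and Fxr2), the two-sided exact permutation test gave p = 0.1, the smallest that 3 against 3 libraries allow, and 0.175 after adjustment over the 7 shares.

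**Figure D4:**
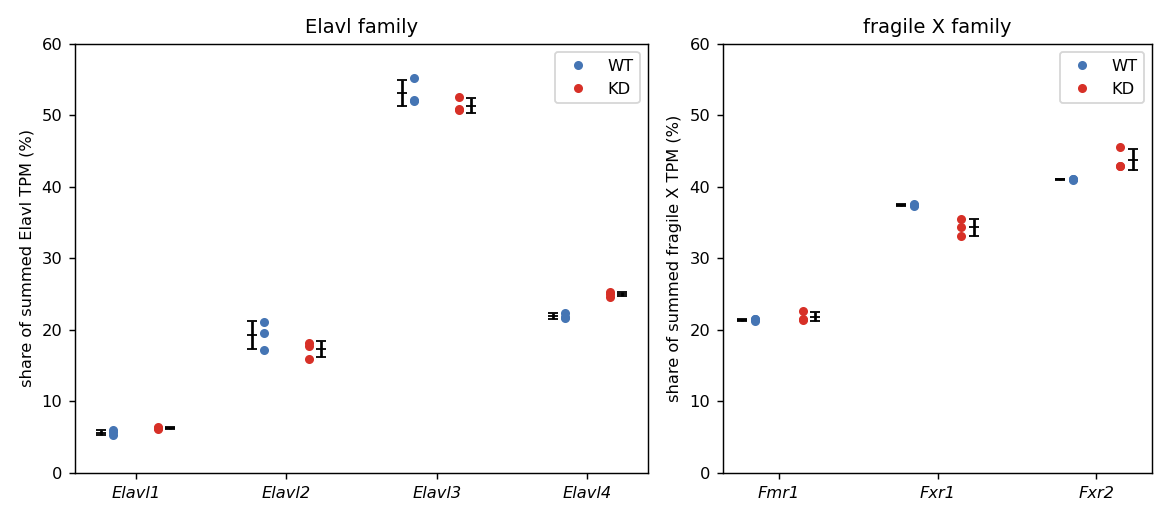
Share of each gene in the summed TPM of its family (%, vertical axes from 0) in the 3 WT and 3 KD libraries, with black bars for mean and SD. The Elavl4 share is higher in KD and the Fxr1 share lower, each without overlap between groups.

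Because Fmr1 and Fxr2 rose together, their promoters (250 bases before to 50 bases after the start, RefSeq, GRCm38.p6, plus strand) are shown. All 8 genes had a promoter entry. Capitals mark 3 motifs searched on both strands, the GC box GGGCGG (a match to Sp family factors), the E-box CACGTG and CGCATGCG, a core of the NRF1 site. The sequence CCAAT, the core of the Y-box for which Ybx1 was named, was searched as well.
Fmr1, chrX:68678291-68678590: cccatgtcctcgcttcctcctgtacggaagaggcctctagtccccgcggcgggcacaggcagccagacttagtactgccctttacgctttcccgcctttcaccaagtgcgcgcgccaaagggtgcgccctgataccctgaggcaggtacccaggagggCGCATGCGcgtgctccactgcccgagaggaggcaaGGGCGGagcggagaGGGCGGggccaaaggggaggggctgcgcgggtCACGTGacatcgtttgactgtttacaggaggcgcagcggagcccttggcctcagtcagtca
Fxr2, chr11:69632721-69633020: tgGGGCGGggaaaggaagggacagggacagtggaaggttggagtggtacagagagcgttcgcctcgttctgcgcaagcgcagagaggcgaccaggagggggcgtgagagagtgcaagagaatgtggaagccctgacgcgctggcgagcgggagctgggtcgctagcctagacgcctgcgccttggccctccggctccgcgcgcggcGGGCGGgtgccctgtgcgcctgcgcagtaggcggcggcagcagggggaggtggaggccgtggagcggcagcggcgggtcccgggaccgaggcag

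Both promoters held 2 GC boxes, a motif found in 35.7% of all 32851 promoter windows. It was also in the windows of Fxr1, Syncrip and Elavl3 and in 5 of 6 windows of Elavl2. No window of Elavl1 or Elavl4 held it. The 2 promoters shown were rich in CpG, with 24 CG dinucleotides in Fmr1 and 32 in Fxr2 against a median of 7 over all windows. The CpG counts of the other genes described here are not given. The E-box (7.15% of windows) and the NRF1 core (1.87%) were in both Fmr1 windows, of which 1 is shown, and not in that of Fxr2. CCAAT was in none of these windows nor in those of Fxr1 and Syncrip. At least 1 window of each Elavl gene held it, against 37.4% of all windows. Elavl2 and Elavl4 have several windows (6 and 4), and whether these overlap is not given here, so their matches are not counted as independent. A match describes letters only, and binding was not measured here.

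The genes most like Fmr1 and Fxr2 in pattern over the 6 libraries were found by the root mean square difference of centred log2 CPM, among 11432 other genes with a mean of at least 5 CPM. For Fmr1 these were App, the amyloid precursor protein gene, which differed by 0.014 on the log2 scale, and Ints4, a subunit of the Integrator complex, which differed by 0.017. For Fxr2 they were Rdx, encoding the membrane linker radixin (0.015), and Metap2, a methionine aminopeptidase gene (0.015).

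Other RNA-binding and partner genes were taken from lists, which were drawn up knowing earlier results of these data. Their counts are to be read against the 12% of all genes called higher and the 11.9% called lower (18.6% and 18.1% with the block). Without the second pair, which leaves 2 libraries per group, each of these lists had at most 1 gene called in either direction. Of 14 mRNA stability and AU-rich element binding proteins, which compete or act with Elavl1 on transcripts, 7 were higher and 1 lower, with a median log2 fold change of 0.18. The 7 became 3 without WT replicate 2 or KD replicate 2 and 4 without KD replicate 1. Khsrp, a decay-promoting protein, rose from 78.5 ± 0.91 to 117 ± 9.52 CPM (log2 fold change 0.58, SE 0.06, adjusted p = 8.19e-04). Hnrnpd, also called AUF1, rose by 0.36 (adjusted p = 0.00176) and the translation repressor Tia1 by 0.28 (adjusted p = 0.00605). Other decay-promoting members of the list did not pass the threshold, with values of -0.27 for Zfp36, 0.01 for Zfp36l1 and 0.195 for Zfp36l2, named here after their values were seen.

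Of 26 neuronal RNA-binding proteins, 6 were higher, 1 was lower and 19 did not pass, with a median of 0.10. With the block the counts were 9 higher and 4 lower. The 6 became 2 without WT replicate 1, WT replicate 2 or KD replicate 2 and 3 without KD replicate 1 or KD replicate 3, and 3 were lower without KD replicate 1. The splicing repressors Ptbp1, of progenitors, and Ptbp2, of young neurons, rose by 0.38 (adjusted p = 0.00449) and 0.25 (adjusted p = 0.00446). Khdrbs2, a splicing regulator, rose by 0.42 (adjusted p = 0.0352). Celf6 fell by 0.47 (adjusted p = 0.00334), from 53.0 ± 4.70 to 38.4 ± 1.35 CPM.

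Of 13 partners of the fragile X proteins, 2 were higher and 1 lower, with a median of 0.10, and 4 were higher and 2 lower with the block. The 2 became 1 when replicate 1 or replicate 2 of either group was left out. The 1 lower gene was not called without WT replicate 2 or any 1 of the KD libraries, and 2 were lower without WT replicate 3. The cap-binding protein gene Eif4e rose by 0.25 (adjusted p = 0.00597), and Caprin1, whose protein binds Fmrp, by 0.14 (adjusted p = 0.0326). Abi2, of the WAVE actin-regulating complex, fell by 0.17 (adjusted p = 0.0222), and its counts were fractional in some libraries, so it is less certain.

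Transcripts known to be bound by the 2 protein families were then counted. Of 22 known Elavl targets, 5 were higher and 5 lower, with a median log2 fold change of 0.08. With the block 9 were higher and 7 lower. The number higher was 3 when replicate 1 or replicate 2 of either group was left out. Fos fell by 1.68 (adjusted p = 0.00591) and Cdkn1a fell by 0.86 (adjusted p = 6.88e-04), whereas Ccna2 rose by 0.57 (adjusted p = 0.015) and Ptma by 0.40 (adjusted p = 0.00123), the counts of Ccna2 being fractional in some libraries.

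Of 20 known Fmrp targets, 1 was higher and 5 were lower, with a median of -0.05 and the same counts with the block. The 5 became 3 without WT replicate 2, WT replicate 3 or KD replicate 1, and the 1 became 0 without WT replicate 2 or KD replicate 2. Shank3, a postsynaptic scaffold gene, fell by 0.37 (adjusted p = 0.00105), from 161 ± 1.68 to 125 ± 3.26 CPM. Kif1a, a motor of synaptic vesicle precursors, fell by 0.27 (adjusted p = 0.00344), the glutamate receptor gene Grm5 fell by 0.25 (adjusted p = 0.0291) and the microtubule-associated gene Map1b fell by 0.23 (adjusted p = 0.009). App was the 1 that rose. It had been picked as the nearest gene to Fmr1 by these same libraries, so a rise like that of Fmr1 was fixed by the choice. The plot of the related lists sets these values beside those of the 8 genes.

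**Figure D5:**
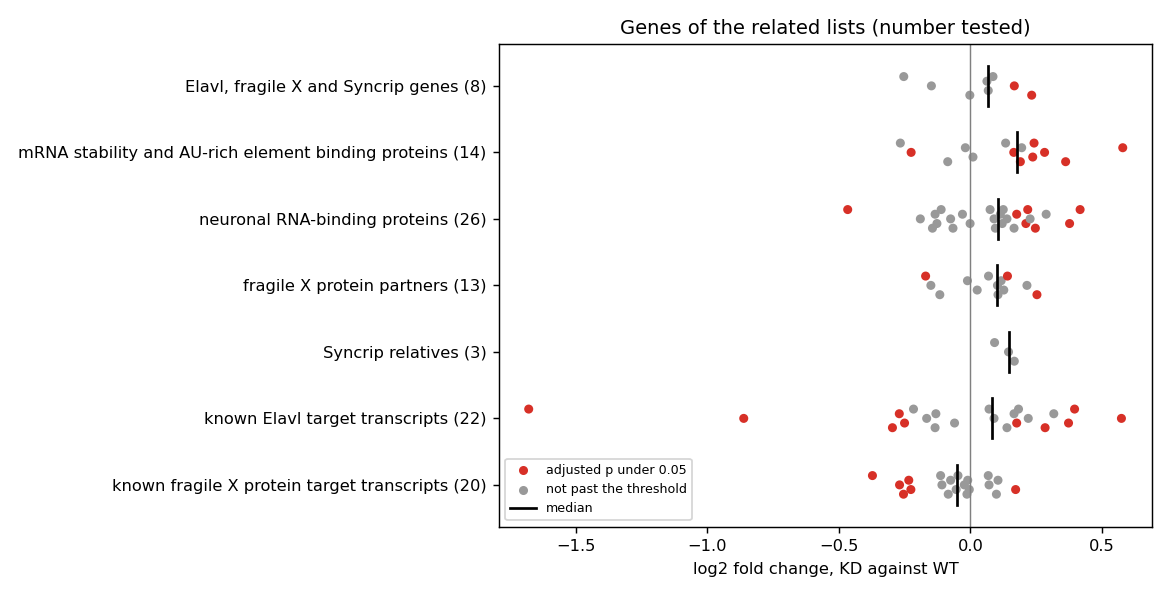
Log2 fold change of KD against WT (horizontal axis) of each gene tested in the 8-gene set and the 6 related lists, with the number tested in brackets. Red points passed an adjusted p of 0.05, and black bars are list medians, which run from -0.05 for known Fmrp targets to 0.18 for mRNA stability proteins.

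Markers of cycling and progenitor cells were counted in the same libraries. The counts of all marker lists are to be read against 12% of all genes called higher and 11.9% called lower. With the block these shares were 18.6% and 18.1%. Of 6 proliferation markers 4 were higher and 0 lower by edgeR (6 and 0 with the block), and their summed level was 269 to 302 TPM in WT and 372.5 to 466 TPM in KD. Of 6 intermediate progenitor markers 5 were higher and 0 lower (6 and 0 with the block), with sums of 74.8 to 104 TPM in WT and 159 to 184 TPM in KD. Of 11 radial glia markers 2 were higher and 0 lower (6 and 0 with the block), with sums of 3109 to 3486 TPM and 3542 to 3835 TPM. The radial glia count was 0 without WT replicate 2. It was 1 when KD replicate 2, KD replicate 3 or WT replicate 1 was left out, and 1 in DESeq2 and in limma-voom. Without the second pair, 0 proliferation, 2 intermediate progenitor and 0 radial glia markers were called higher. None of these lists had a marker at 0 in all libraries. Their part in the rises of Fmr1 and Fxr2 was not tested.

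Of the remaining lists, 1 of 6 interneuron markers was higher and 0 lower by edgeR (2 and 1 with the block), and 2 of 5 oligodendrocyte lineage markers were lower and 0 higher (4 and 0 with the block). Among astrocyte markers, 4 of 5 could be tested and none was called. Of 6 mesenchymal or pericyte markers 3 could be tested and 1, Pdgfrb, was higher (0.72, adjusted p = 0.0318), a call that was kept only without WT replicate 3 when 1 library was left out.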

How the data were processed

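Libraries were grouped by their titles as WT and KD (n = 3 each). The columns named Ctrl were assigned to the WT titles of equal number. The estimated counts and the TPM values were deposited by the authors. The submitters' processing notes name HISAT2 2.2.1, Bowtie2 2.4.5 and RSEM 1.3.1 with GRCm38 (mm10), without their roles. TPM was scaled by the authors to a fixed sum per library. Of the other columns, 6 of FPKM and 6 of group averages were not used.

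Estimated counts were rounded and fitted with edgeR 4.0.16 in R 4.3.3 (TMM scaling, filterByExpr with a minimum count of 10, quasi-likelihood F-test), with Benjamini-Hochberg adjustment over the 13669 genes tested and a threshold of 0.05, two-sided. The planned design was kept although it had assumed whole read counts, and SE was obtained from the log2 fold change and the F statistic. Alternatives used limma 3.58.1 and DESeq2 1.42.0. Shares and summed family levels were compared by an exact permutation test over libraries (scipy 1.17.1), which did not use the replicate numbers as pairs. The fit was tested on simulated data.

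Deviations of equally numbered libraries from their group means correlated over genes at 0.35, 0.32 and 0.18, and others at -0.28 to -0.02, so the numbers were taken to pair the libraries. What a number stands for is not labelled. Replicates differed beyond counting noise in every pair of a group (chi-square per degree of freedom 4.57 to 9.05), and the methods call them independent experiments.

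All 8 genes and Ybx1 are described. Each list, marker lists included, names at most 4 genes, the largest changes that passed the threshold at 5 CPM or more on average, and the 2 most like genes for each gene that passed. A further gene within that rule is not reported here. Genes, lists and tests were chosen with earlier results of these data known.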

Additional observations from a re-analysis of the deposited data

How the results depend on the processing

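Leaving out both replicate 2 libraries was added after seeing the data. None of the 8 genes was called in the opposite direction under any alternative. The number called higher was 2, and it was 1 in DESeq2, 0 without the second pair and 0 to 2 when 1 library was left out. The number called lower was 0, and 2 with the replicate block (Elavl2 and Elavl3). The block changed no other call among the 8. Over all genes, the counts higher and lower were 1646 and 1631, and they were 2539 and 2470 with the block, 135 and 93 without the second pair, and from 779 to 1612 and from 797 to 1583 when 1 library was left out, with fewer samples. On log2(TPM + 1), 2076 were higher and 1072 lower. Without a filter, with library totals only, with RLE size factors and in limma-voom, Fmr1 and Fxr2 stayed past the threshold. The log2 fold change of Fxr1 was 0.00 with RLE, 0.02 with library totals, 0.005 without a filter, 0.003 in DESeq2, 0.064 on TPM and between -0.03 and 0.026 without 1 library. Measured on read counts, the Elavl4 share was 2.554 points higher in KD than in WT, against 3.029 points on TPM. The cause of these differences was not tested. Elavl1, Elavl4 and Syncrip passed under none of the 14 alternatives, with a smallest adjusted p of 0.249, 0.101 and 0.0599.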
